A study of Mus musculus with 18 samples.

Results

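The subject is a set of 200 transcripts of mouse testis whose signal rose by postnatal day 21 (P21) and rose again by adulthood. They are read by 200 of the 37820 probes on the arrays. Each probe is counted as a transcript here, since it is not known which probes read the same one. Whole testis was profiled at 6 stages on 18 arrays, 3 to a stage. The fetal stages were embryonic days 12.5 and 15.5 (E12.5 and E15.5), the juvenile stages P7, P14 and P21, and the last was the adult. No strain, genotype or treatment is given in the labels, so the stages differ by age as far as the labels say, and no label tells whether a sample was 1 animal or a pool. The replicates are numbered 1 to 3 and nothing says that they came from separate animals, so the p-values reflect no more than the variation among these arrays, part or all of which may be technical. After ribosomal RNA was removed, random primers were used to make Cy3-labelled cRNA from the rest, and each sample was hybridised to its own 1-colour array built for lncRNAs and mRNAs. Values are log2 signals as the authors deposited them.

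The members were chosen by measured values, as follows. Among 34232 probes whose identifiers begin with ASMM9PARTA, the median of the 3 arrays was taken at each stage. A probe was kept if P21 exceeded the highest of E12.5, E15.5, P7 and P14 by at least 2, which is the first rise, and if the adult exceeded P21 by at least 1.5, which is the second rise. Both thresholds are on the log2 scale. Of the 34232 probes, 203 (0.593%) passed both, and the 200 with the highest score, the adult median minus the highest of the first 4 stage medians, are described here. The list is therefore nearly everything that passed, and every one of its members entered the tests below. Since the rule fixes both rises, their sizes are given as a description with no test. The probes carry no gene name in the sources used here (0 of 37820 identifiers matched the gene tables), so members are called by their identifiers, no role can be given for them, and the tissue could not be checked against marker genes.

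As background, the first wave of spermatogenesis proceeds in near synchrony in the young mouse. Spermatogonia are followed by spermatocytes, which pass through the long meiotic prophase, and then by haploid round spermatids at about the third week after birth. Elongating spermatids, in which the nucleus is compacted and the tail and acrosome are assembled, accumulate only later, so a juvenile testis with its first round spermatids still lacks most cells of the final phase. Many genes are transcribed mainly in haploid cells, and many of their mRNAs are stored for translation during elongation. Somatic cells such as Sertoli and Leydig cells are also present, and their share of the tissue falls as germ cells accumulate. In whole tissue a change in the number of cells of a type and a change in RNA per cell cannot be told apart, and this holds for every comparison of stages below.

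Over all probes the 18 arrays had medians from 7.795 to 7.997. Some arrays stood apart from their stage. E12.5 replicate 2 correlated with replicates 1 and 3 at 0.932 and 0.931 across all probes, while those correlated with each other at 0.997. P21 replicate 1 correlated with replicates 2 and 3 at 0.924 and 0.948, and those with each other at 0.982. Adult replicate 1 stood at 0.947 and 0.956 from the other adult arrays. Both of the first named arrays touch the members, as described with the results.

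In the median the members were dim at the first 4 stages and bright in the adult. In 20 of the 200 the highest of the first 4 stage medians was above 10. At E12.5 the median over the 200 stage medians was 6.77, and at E15.5 it was 6.87. It was 6.92 in P7 testis and 5.99 in P14 testis. It reached 11.03 at P21 and 14.42 in the adult. The arrays of P21 lay between the earlier and the adult arrays in median, at 10.03, 11.23 and 11.04 for replicates 1, 2 and 3, and the adult arrays lay close together at 14.45, 14.42 and 14.44. At the highest of the first 4 stages the median member stood at percentile 33.2 of all probes, and in the adult at percentile 94.6. Adult levels spanned 10.15 to 17.68, and 115 members were above 14 in the adult, as were 6.61% of all probes. Replicates of the members were tightest in the adult, with a median SD over 3 arrays of 0.13, and widest at P21, with 0.61. The same SD over all probes was 0.28 in the adult and 0.49 at P21.

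**Figure D1:**
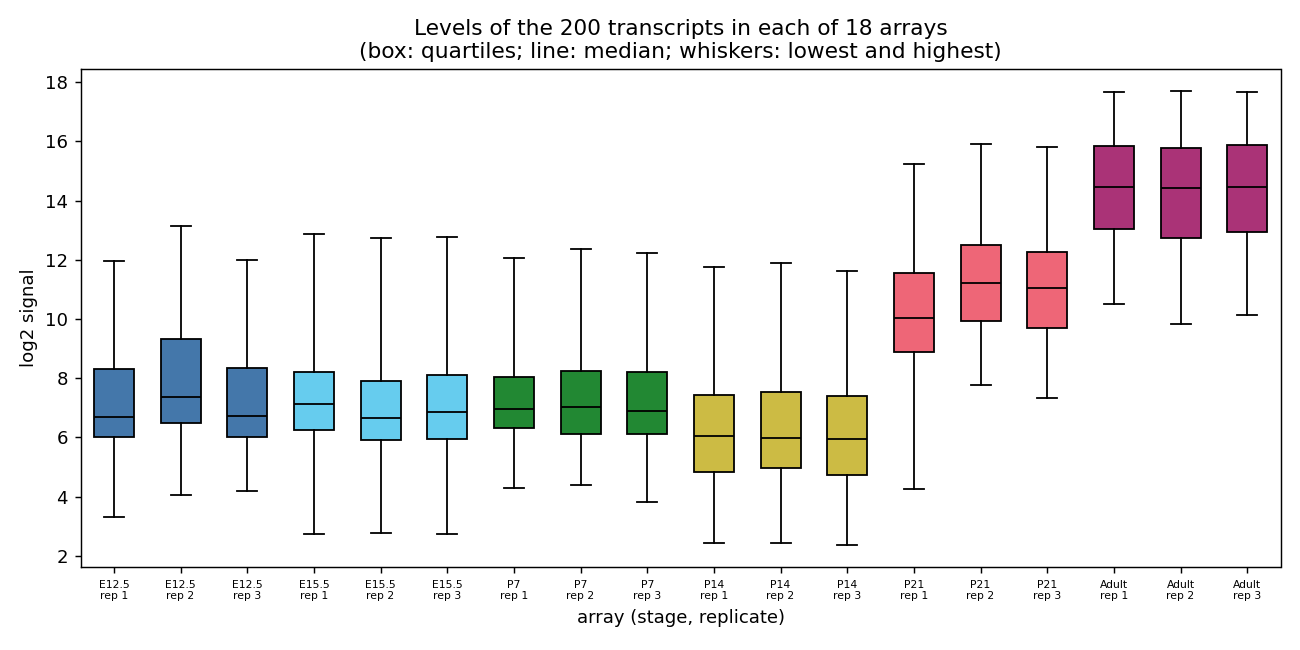
Log2 signal of the 200 transcripts in each of the 18 arrays, coloured by stage; the line is the median, the box the quartiles and the whiskers the lowest and highest member. The medians of the 3 P14 arrays, from 5.94 to 6.04, are the lowest, those of P21 lie between 10.03 and 11.23, and those of the adult between 14.42 and 14.45.

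Separation between stages was complete for most members. In 187 of the 200, all 3 P21 arrays exceeded all 12 earlier arrays, as was the case for 9.55% of all probes. In all 200 the 3 adult arrays exceeded the 3 P21 arrays, against 13.8% of all probes. Both counts follow from the rule in large part and nothing is read from them. In the 13 members with overlap, P21 replicate 1 was the only P21 array that failed to exceed every earlier array, and in 9 of them the highest earlier array was E12.5 replicate 2.

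The first and the second rise were of similar size in the median. The first rise had a median of 3.06, which is 8.32-fold, and ranged from 2.00 to 6.49. The second had a median of 3.09, which is 8.52-fold, and ranged from 1.51 to 5.99. Together they made a median rise of 6.78, or 110-fold, from 4.01 in the last member to 8.97 in the first. The first rise was the larger in 108 members and the second in 92. Both reached at least 3 in 45 members. The first rise reached 5 in 18 members and the second in 14. The P21 value enters both sizes with opposite sign, so no relation between them is given.

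**Figure D2:**
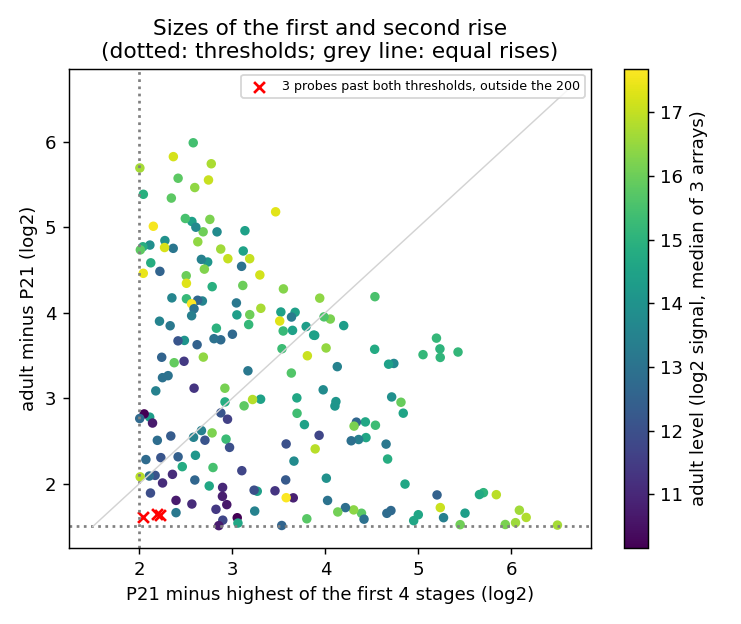
Size of the first rise (x axis) against the second rise (y axis), both in log2 units from stage medians, for the 200 transcripts, coloured by adult level; crosses are the 3 probes that passed both thresholds with lower scores. Members lie on both sides of the line of equal rises, 108 below it and 92 above, and the upper right corner, where both rises are large, is empty.

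The highest score belonged to ASMM9PARTA022743. Its signal was 5.80, 6.77 and 5.97 in E12.5 replicates 1, 2 and 3, 6.32, 5.76 and 5.56 at E15.5, and 6.40, 6.13 and 6.17 at P7. It was 2.44, 2.43 and 2.38 at P14, and then 9.96, 12.16 and 11.60 at P21 and 15.27, 15.14 and 15.00 in the adult. The P14 arrays were thus the lowest of all, P21 replicate 1 lagged the other P21 arrays, and no stage from P14 on overlapped another. From the highest of the first 4 stage medians to the adult this is a rise of 8.97, or 499.8-fold. The probe with the next score, ASMM9PARTA022945, had a similar course: it was at 3.74, 4.28 and 3.86 at P14, at 9.80, 12.13 and 11.46 at P21 and at 15.16, 15.02 and 15.17 in the adult, with a rise of 8.90. At the other end of the list, ASMM9PARTA041383 and ASMM9PARTA045175 rose by 4.06 and 4.01. Just outside it, ASMM9PARTA047877 and ASMM9PARTA016989 passed both thresholds with scores of 3.86 and 3.83.

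Members at the edges of the thresholds differed little from probes just beyond them. ASMM9PARTA023810 entered with a first rise of 2.00, while ASMM9PARTA001021 stayed out at 1.997. ASMM9PARTA043922 entered with a second rise of 1.51, while ASMM9PARTA004643 stayed out at 1.49. Among all ASMM9PARTA probes, 1240 reached the first threshold.

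Members differed widely in the share of their rise that was complete by P21. On the log2 scale the median member had reached 50.9% of its rise at P21, with quartiles at 40.7% and 61.8% and a range from 26.1% to 81.1%. The member closest to the median share, ASMM9PARTA012726, was at 8.94, 10.91 and 10.62 in the 3 P21 arrays and at 14.31, 14.46 and 14.36 in the adult, from at most 6.92 in any earlier array. The smallest share was that of ASMM9PARTA037096, with 9.69, 11.39 and 10.98 at P21 and 16.70, 16.64 and 16.67 in the adult. Its E12.5 arrays were at 8.95, 10.12 and 8.97, so P21 replicate 1 overlapped E12.5 replicate 2, and its second rise was 5.69. ASMM9PARTA036549 was close to it, with 27.5% of its rise reached at P21. The largest share was that of ASMM9PARTA048131, which stood at 14.74, 15.37 and 15.16 at P21 and at 16.68, 16.49 and 16.69 in the adult. Its first rise was 6.49 and its second 1.52, and it was followed by ASMM9PARTA036319 with 79.6%.

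When the members were ordered by this share and divided into 4 groups of 50, adult levels were much alike and P21 levels were not. The adult median was 14.90 in the group with the smallest shares and 14.33, 14.33 and 14.48 in the others. The P21 median climbed from 10.25 through 10.57 and 11.16 to 11.99, as the ordering itself leads to. The ordering uses the highest of the first 4 stages, which was P7 in 46 members and P14 in 43.

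P21 replicate 1 gave lower levels for most members than the other P21 arrays. It was the lowest of the 3 in 169 members, against 55.7% of all probes, and P21 replicate 2 was the highest in 150, against 43.2%. Measured from the highest of the first 4 stage medians to the adult median, replicate 1 had reached a median of 37.2% of the rise, replicate 2 52.8% and replicate 3 51.7%. The first rise was at least 2 in 127 members in replicate 1, in 196 in replicate 2 and in all 200 in replicate 3. Because replicate 3 was mostly the middle array, the stage medians that chose the members are largely its values. In ASMM9PARTA045110 and ASMM9PARTA022540, named here after their values were seen, replicate 1 was below the highest of the first 4 stage medians: the first was at 4.25 in replicate 1 but at 10.24 and 9.72 in replicates 2 and 3, and the second at 5.64, 10.23 and 9.73.

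**Figure D3:**
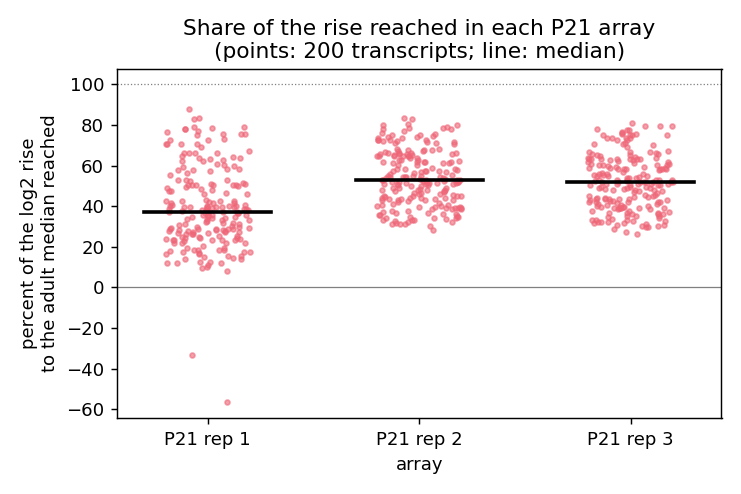
Percent of the log2 rise from the highest of the first 4 stage medians to the adult median that each of the 200 transcripts had reached in each P21 array; the line is the median. Replicate 1 is centred on 37.2%, below replicates 2 and 3 at 52.8% and 51.7%, and 2 members in it fall below 0.

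The rule was also run without an array, and the array that took no part was then read. Chosen without P21 replicate 1, the list again had 200 members, of which 178 were among the members described here, and 109 of the 200 met both thresholds in replicate 1 alone. Chosen without replicate 2 the list had 185 members, of which 141 met them in replicate 2. Chosen without replicate 3 it had 195, of which 172 met them in replicate 3. For adult replicates 1, 2 and 3 the counts were 191, 185 and 193 of 200. Only the second threshold involves an adult array, so these counts are not comparable with those of the P21 arrays. For the 200 members described here, not the lists chosen again, the median share reached by P21 was also recomputed. It was 52.2% without replicate 1, 43.2% without replicate 2 and 44.4% without replicate 3. In every P21 array the median member lay between its early and its adult level, but these arrays had helped to choose it. The height of its P21 level depended on the array. What set replicate 1 apart was not tested.

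The levels at the first 4 stages are not ordered by the rule, so the comparisons among these stages were tested. All 37820 probes and 18 arrays entered a limma fit of stage means. A member is counted as higher or lower where its adjusted p (Benjamini-Hochberg, over all probes) was below 0.05 and the stage means differed by at least 1. Of the 200 members, 140 (70%) were called, which means that they passed both criteria, in at least 1 of 4 such comparisons and 60 in none. The last group reached 57.2% of its rise by P21 in the median. The same count over all probes was not made, so nothing is read from the 140. Shares over all probes are given below for each comparison on its own.

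From P7 to P14, just before the first rise, the members more often fell than rose. Signal fell in 82 of the 200 (41%), where 6.64% of all probes fell, and rose in 13 (6.5%), where 6.21% of all probes rose. The median change was −0.77 over the members and −0.06 over all probes. In 122 members all 3 P14 arrays were below all 3 P7 arrays, against 30.4% of all probes. P14 was the lowest of the first 4 stages in 121 members (60.5%), against 29.3% of all probes. Leaving out any 1 array moved the number of falls only between 73 and 86. With the 12 arrays of the first 4 stages alone, without the P21 and adult arrays, it was 83. The members were not chosen again, and these 12 arrays had helped to choose them, so this fit does not test the choice. The number of falls was 86 with E12.5 replicate 2 and P21 replicate 1 both left out. When limma's treat was used to test against a change of 1, it was 37. The 6.64% of all probes belongs to the main fit, so the counts under these other settings are not to be set against it.

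The steepest falls ended at or near the lowest values of the P14 arrays. ASMM9PARTA035076 was at 8.20, 8.16 and 8.27 at P7 and at 2.44, 2.43 and 2.38 at P14, a fall of 5.79 (SE 0.34, adjusted p = 1.73e-08, limma). It then reached 11.04, 12.45 and 12.25 at P21 and 16.18, 16.19 and 16.17 in the adult. ASMM9PARTA021462 fell by 5.76 (SE 0.40, adjusted p = 1.33e-07, limma), from 9.08 ± 0.13 to 3.31 ± 0.87 (SD, n = 3). The lowest values of the P14 arrays over all probes were 2.44, 2.43 and 2.38, and the first probe lay on them, while the other was at 4.18, 3.32 and 2.45. The leading member of the list, ASMM9PARTA022743, was at the same values at P14 and fell by 3.82 (SE 0.41, adjusted p = 1.18e-05, limma). At the median share of the rise, ASMM9PARTA012726 changed by −0.91 (SE 0.36) and did not pass the test (adjusted p = 0.103, limma).

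The 13 rises from P7 to P14 were smaller. The largest was that of ASMM9PARTA009442, which was at 7.66, 6.92 and 6.79 at P7 and at 10.66, 10.50 and 10.45 at P14. This is a rise of 3.41 (SE 0.30, adjusted p = 1.55e-06, limma). ASMM9PARTA035266 rose by 2.68 (SE 0.26, adjusted p = 3.70e-06, limma), from 7.66 ± 0.20 to 10.34 ± 0.08 (SD, n = 3). The members that rose had reached a median of 62.7% of their rise by P21, those that were not called 52.8% and those that fell 44.5%. Adult medians were 14.47, 13.44 and 15.38 in the same order. Over the 4 groups by share of the rise at P21, from the smallest share to the largest, 33, 23, 18 and 8 of 50 fell and 0, 0, 5 and 8 rose. The share uses P7 or P14 where that stage was the highest of the 4, so these counts are a description.

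Transcripts with other courses at P21 were set beside the members. A set of 200 ASMM9PARTA probes was taken by the same score among those whose first rise was at least 2 but whose adult and P21 medians lay within 0.5, and another among those that rose by less than 0.5 to P21 and by at least 1.5 after it. In the set that was level by P21, 75 rose and 4 fell from P7 to P14, with a median change of 0.65. In the latter, called the late set, 2 rose and 79 fell, with a median of −0.67. From P14 to P21, 77 probes of the late set rose, so it is late only in that P21 did not pass its highest early stage by 0.5. The members, with 13 and 82, had counts nearer to those of the late set. The difference between the sets was not tested.

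**Figure D4:**
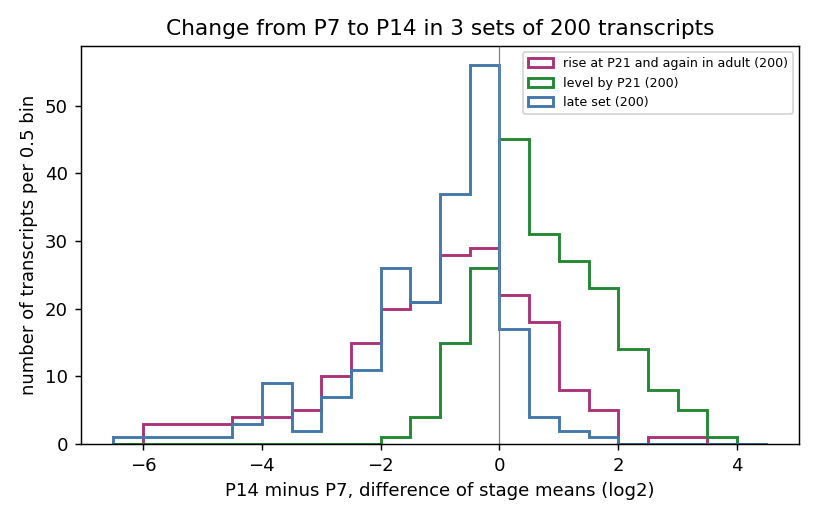
Number of transcripts by the difference of the P14 and P7 means (log2, bins of 0.5) for the 200 transcripts that rose at P21 and again in the adult, for 200 that were level by P21 and for the 200 of the late set. The first and the last set are centred below 0, with medians of −0.77 and −0.67, and the set level by P21 above it, with 0.65.

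Other probes with the same P7 levels fell less often. The middle 50% of the members lay between 6.14 and 8.18 at P7, and 12783 probes of the table lay in this range, a band set after the data were seen. Of those probes 4.69% fell and 5.47% rose, while of the 100 members in it 44 fell and 7 rose. This difference carries no test.

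Between the fetal stages the members moved in both directions. From E12.5 to E15.5 signal fell in 43 members (21.5%), where 9.46% of all probes fell, and rose in 20 (10%), where 10.6% of all probes rose. The number of falls rested on E12.5 replicate 2. Without that array 25 members fell and 29 rose. In the members it was above the mean of E12.5 replicates 1 and 3 by a median of 0.89 and in 181 of 200, against a median of 0.34 and 65.9% over all probes. The largest rise was that of ASMM9PARTA010876, from 8.78, 9.33 and 8.94 to 12.86, 12.72 and 12.79, which is 3.78 (SE 0.20, adjusted p = 2.53e-09, limma). It had a bright fetal signal, and it was still at 10.87 ± 0.15 (SD, n = 3) at P7. ASMM9PARTA022984 rose by 3.28 (SE 0.29, adjusted p = 1.11e-06, limma). The largest falls were those of ASMM9PARTA025063, by 2.72 (SE 0.36, adjusted p = 5.50e-05, limma), and of ASMM9PARTA034991, by 2.61 (SE 0.40, adjusted p = 0.000211, limma). The first of these was at 5.94, 5.60 and 6.04 at E12.5 and at 2.73, 2.77 and 3.90 at E15.5.

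From E15.5 to P7 the members changed about as often as other probes. Signal rose in 15 (7.5%) and fell in 17 (8.5%), where 7.5% of all probes rose and 8.23% fell, and the median change was 0.18. Without P7 replicate 2 the number of rises was 9, and without E15.5 replicate 1 the number of falls was 8. ASMM9PARTA025063 and ASMM9PARTA034991 returned, with rises of 2.91 (SE 0.36, adjusted p = 3.66e-05, limma) and 2.504 (SE 0.40, adjusted p = 0.000343, limma). ASMM9PARTA026444 fell by 2.52 (SE 0.46, adjusted p = 0.00108, limma) and ASMM9PARTA010876 by 1.92 (SE 0.20, adjusted p = 7.86e-06, limma). These comparisons share the E15.5 arrays with those of the previous paragraph.

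Across the whole span before the first rise, from E12.5 to P14, 96 members (48%) fell, where 12.7% of all probes fell, and 22 (11%) rose, where 14.5% of all probes rose. The median change was −0.95 over the members and 0.01 over all probes. Without E12.5 replicate 2 the falls were 82. The steepest were those of ASMM9PARTA019775, by 6.50 (SE 0.43, adjusted p = 1.57e-08, limma), and ASMM9PARTA025201, by 6.47 (SE 0.41, adjusted p = 8.70e-09, limma). The former went from 8.95, 10.35 and 8.98 to 3.16, 2.85 and 2.79, and was at 16.59, 16.43 and 16.38 in the adult. ASMM9PARTA009442 and ASMM9PARTA036664 rose by 3.10 (SE 0.30, adjusted p = 1.13e-06, limma) and 2.97 (SE 0.16, adjusted p = 2.18e-09, limma).

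Among the first 4 stages, levels at E12.5 and P7 correlated most with adult levels across members and those at P14 least. Across the 200 members, Pearson's r between an array's level and the adult median was 0.787 to 0.849 in the E12.5 arrays, 0.573 to 0.611 at E15.5 and 0.754 to 0.784 at P7. In the P14 arrays it was 0.248 to 0.256, and at P21 0.664 to 0.794. Over all 37820 probes it was 0.621 to 0.697 at E12.5, 0.666 to 0.685 at E15.5, 0.700 to 0.712 in the P7 arrays and 0.736 to 0.743 in the P14 arrays. These are descriptions over probes that share the adult arrays. Probes may also differ in how strongly they bind, which can enter every r and was not tested. The rule sets a minimum, and no maximum, for the adult level above the highest early stage. Among the members this excess ran from 4.01 to 8.97. Such a choice ties the early and adult levels together in part, and the rule treats the 4 stages alike. In the set that was level by P21 the P14 arrays had r from 0.858 to 0.867, and in the late set from 0.156 to 0.207, beside 0.905 to 0.926 in the E12.5 arrays of that set. In the 50 members brightest in the adult, from 15.83 to 17.68, the medians of the 4 stages in order of age were 8.93, 8.39, 9.00 and 7.05. In the 50 dimmest, from 10.15 to 12.90, they were 5.76, 5.98, 5.84 and 5.78, so the medians of the 4 stages were nearly level there, while single members such as ASMM9PARTA026444 were not.

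**Figure D5:**
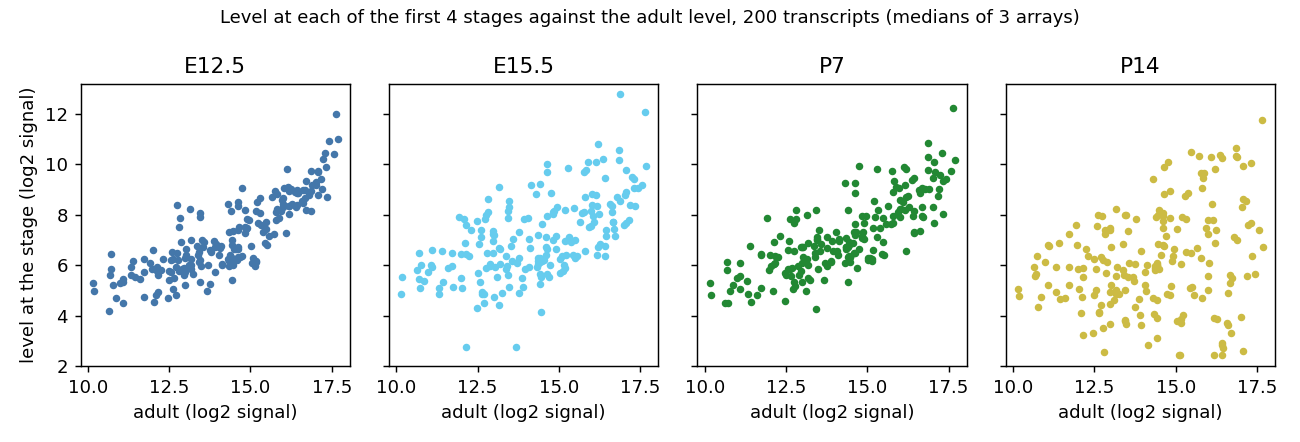
Level at E12.5, E15.5, P7 and P14 (y axes) against the adult level (x axes) of the 200 transcripts, in log2 signal as medians of 3 arrays. At E12.5 and P7 the points follow a rising band, at E15.5 a wider one, and at P14 they fan out with the adult level and span 2.43 to 11.76.

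At P14, 29 members (14.5%) had a median below 4, near the lowest values of the table, where 0.566% of all probes did. In the late set 24 of 200 did, and in the set level by P21 1 did. At E12.5 and P7 no member did, and at E15.5 2 did. In the 29 the median fell from 6.79 in P7 testis to 3.50 in P14 testis and stood at 11.51 in P21 and 15.14 in adult testis. Picking members for a low P14 level favours falls from P7 to P14, so no count of falls is read from them. The P14 replicates were close to each other, with correlations from 0.993 to 0.995 across all probes and a median SD of 0.15 over the members. Detection flags were not used here, so whether any of these early levels lie above background was not measured, and what set P14 apart from the other early stages was not tested.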

How the data were processed

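The authors deposited 1 table of values for 37820 probes in 18 arrays, taken here to be log2 signals from their range of 2.38 to 18.34. Log base, normalization and probe filter were not given in the sources used here. Agilent Feature Extraction 11.0.1.1 is named in the submitters' processing notes. Values were used as deposited, and scanner files were not used here. The number of arrays limits the precision.

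The members and comparison sets were chosen with earlier results of these data known. Stage medians chose the members. Tests used limma 3.58.1 in R 4.3.3 (lmFit, eBayes, 12 residual degrees of freedom plus a prior of 3.20), with Benjamini-Hochberg adjustment over all 37820 probes within each comparison. The fit was tested on simulated data. Named probes were the 2 members with the highest and the lowest scores, the 2 just outside, those with extreme or middle shares of the rise at P21, and up to 2 called rises and falls in each tested comparison; the neighbours of each threshold were added to these. Alternatives were the replicate block, other normalizations, priors, filters, thresholds and left-out arrays. Plots were drawn with matplotlib 3.10.9.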

Additional observations from a re-analysis of the deposited data

How the results depend on the processing

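Of 823 values recomputed for 29 results, 804 were unaltered in direction and call, or for counts and medians lay no further from the reported value than 1.5 times or 1 SD of the P21 arrays. Many of the results are named probes picked for the largest called changes in these data, which favours an unaltered call. Some medians do not use the array left out and so could not move. The 804 is therefore a tally and not a test. No change of a named probe turned its direction, and direction was compared for these alone. The balance of counts from E12.5 to E15.5 did turn. With all arrays 43 members fell and 20 rose, and without E12.5 replicate 2 25 fell and 29 rose. When limma's treat was used to test against a change of 1, 7 members rose and 4 fell from E12.5 to E15.5, 2 and 1 from E15.5 to P7, 3 and 37 from P7 to P14, and 6 and 53 from E12.5 to P14, a test that asks for more than the 2-fold minimum. At an adjusted p below 0.01, 9 rose and 9 fell from E15.5 to P7. Shares of all probes under these 2 stricter settings are not given here, so no excess over all probes is read from the counts. Leaving out single arrays gave 16 to 29 rises and 25 to 46 falls from E12.5 to E15.5, and 9 to 17 rises and 8 to 19 falls from E15.5 to P7. Without E12.5 replicate 2 and P21 replicate 1, chosen after seeing the data, 31 rose and 26 fell from E12.5 to E15.5. E12.5 replicates 1 and 3 were the closest pair of arrays of 1 stage (SD of their difference 0.23), and with both averaged to 1 array 16 rose and 42 fell there. Thresholds of 1.5 and 1 let 400 probes pass, and 2.5 and 2 let 113 pass, all of them members. The rule on stage means gave 182 probes, 165 of them members.

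In the main fit, arrays with the same replicate number were not paired. Of 45 pairs of arrays with the same number, 14 had deviations from their stage means that correlated above 0.1. The correlations ran from −0.37 to 0.50, with a median of 0.06, and 10 of 18 arrays correlated best with their own number. Whether the numbers pair the arrays in part was not tested. With the replicate block, 84 members fell and 13 rose from P7 to P14, and 97 and 22 from E12.5 to P14. The counts for the other comparisons were 43 falls and 20 rises from E12.5 to E15.5, and 17 and 15 from E15.5 to P7.

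Levels near the lowest values of an array have no stated limit of detection. That bears on the falls to P14 and on the changes to and from E15.5 of ASMM9PARTA025063 and ASMM9PARTA034991, which were at the lowest value of at least 1 E15.5 array.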

Other observations

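The same thresholds were applied to probes of the other identifier families, as a description. Of 527 probes named CUST, 30 (5.69%) passed both, beside 203 (0.593%) of ASMM9PARTA. All 30 ended in PI426409190, which marks 245 of the CUST probes (12.2% of them passed), and none of the 282 that end in PI426073487 did. Their scores ran from 4.23 to 8.51 with a median of 6.36, and they had reached a median of 69.8% of the rise by P21. What these probes target is not given in the sources used here. Of 581 probes named by a sequence record, 2 passed.

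Of 2480 probes with lincRNA in the identifier, 0 passed. The first rise reached 2 in 8 of them (0.323%), against 3.62% of ASMM9PARTA, and the second reached 1.5 in 189 (7.62%), against 9.35%. With thresholds of 1.5 and 1, 2 lincRNA probes and 400 ASMM9PARTA probes passed. The lincRNA probe nearest to both thresholds, chosen after its values were seen, was MM9LINCRNAEXON12029-_P1, whose stage median went from 12.66 at P14 to 15.52 at P21 and 16.84 in adult testis, with a second rise of 1.32.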
